A study of Mus musculus with 30 samples.

Results

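The genes described are those of the mitochondrial ribosomal proteins, taken as every gene of the array whose symbol starts with Mrpl (large subunit) or Mrps (small subunit) followed by a digit. There were 76 such genes among 19057 genes with a symbol, 48 of the large and 28 of the small subunit, and each was read from the probe with the highest mean over the 30 arrays. Of these, 73 passed the filter on dim probes and were tested among 12935 genes, 46 of the large and 27 of the small subunit. Male C57BL/6 mice aged 11 to 12 weeks and not fasted received phosphate-buffered saline (PBS), 1 intraperitoneal dose of exendin-4 (Ex-4, 10 nmol/kg) or 1 dose of Fgf7 (keratinocyte growth factor, 1 mg/kg; route not given). Mucosa was scraped from the jejunum at 1, 5 or 20 h. Each of the 9 groups of agent and time held 3 arrays at 1 h and 20 h and 4 arrays at 5 h. All mice were wild type as far as the labels say, and nothing in the labels says whether each array stands for 1 animal, so p-values cover only the spread among these arrays.

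The mitochondrial ribosome translates the few messenger RNAs encoded by mitochondrial DNA, which specify core subunits of the respiratory chain and of the ATP synthase. Its proteins are all encoded in the nucleus, made on cytosolic ribosomes and imported, so that the organelle's own translation depends on nuclear genes. Ex-4 is a peptide agonist of the GLP-1 receptor, and Fgf7 is a ligand of the epithelial isoform of the receptor Fgfr2; both are known as agents that stimulate growth of the intestinal mucosa.

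The deposited values were log2 probe signals. The most frequent value, taken as background, was 7.02, and probes were kept when at least 3 arrays lay above a dim level of 7.19. Of the 73 genes tested, 72 lay above that level on all 30 arrays, and Mrpl45 on 5 arrays, with 4 of the 9 groups holding at least 1 of them. Mrpl19 and Mrpl32 exceeded it on 0 arrays and Mrps14, a core small subunit protein, on 1, and these 3 were not tested. The 15 smooth muscle markers set 4 arrays apart: their mean centred log2 signal was 1.94 on PBS replicate 3 at 1 h, 1.96 on PBS replicate 3 at 5 h, 1.16 on Fgf7 replicate 2 at 5 h and 0.86 on Ex-4 replicate 1 at 5 h. None of these arrays was taken at 20 h, where the same mean ran from -0.46 to -0.02. Among the 10 enterocyte markers tested, the labelled tissue's main epithelial type, were Lct, Alpi and Sis, while Fabp1 and Fabp2 had no probe that was tested.

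Mitochondrial ribosomal protein genes lay highest 20 h after Ex-4. Their values were centred per gene and averaged over each subunit on every array. For the large subunit the Ex-4 arrays at 20 h stood at 0.21, 0.09 and 0.16, the PBS arrays at 0.06, -0.02 and -0.09, and the Fgf7 arrays at 0.01, 0.11 and -0.07. For the small subunit the same groups stood at 0.20, 0.06 and 0.19, at 0.03, -0.02 and -0.07, and at -0.03, 0.10 and -0.05. The Ex-4 arrays did not overlap the PBS arrays of that time in either subunit, and the lowest Ex-4 array lay below the highest Fgf7 array in both. Over the 9 groups the large subunit mean ran from -0.08 ± 0.08 (SD, n = 3) 1 h after Fgf7 to 0.15 ± 0.06 (n = 3) 20 h after Ex-4. The small subunit mean ran from -0.08 ± 0.08 to 0.15 ± 0.08 in the same groups. In the order of the groups, the other 8 large subunit means lay between -0.08 and 0.02, each within the pooled SD between arrays of 0.07 of its neighbours. A bulk sample cannot tell more cells of a type from more RNA per cell.

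**Figure D1:**
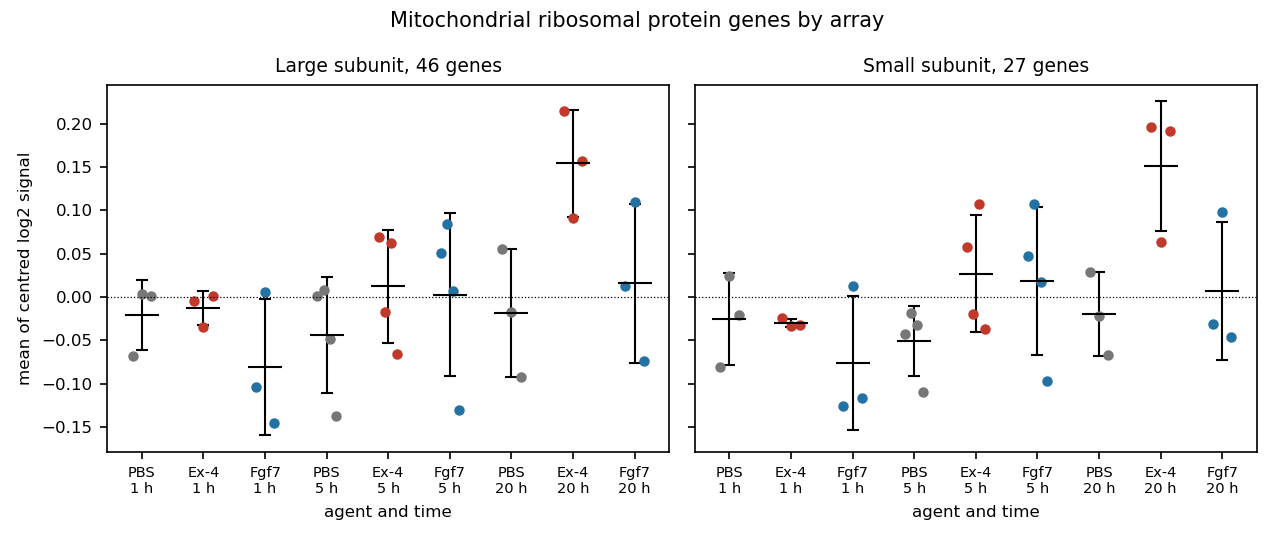
Mean of the centred log2 signal over the 46 large subunit genes (left) and the 27 small subunit genes (right) by agent and time; points are arrays and bars the group mean ± SD. The 3 Ex-4 arrays at 20 h lie above every PBS array of that time, and the lowest of them lies below the highest Fgf7 array.

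The highest of a gene's 9 group means was that of Ex-4 at 20 h for 35 of 46 large subunit genes (76.1%) and 20 of 27 small subunit genes (74.1%), against 20.0% of all genes tested. The lowest was that of Fgf7 at 1 h for 21 large (45.7%) and 11 small subunit genes (40.7%), against 14.5% of all genes. These counts were made after the members' values had been seen, and are descriptions. A test of any difference among the 9 groups (limma's F-test, adjusted over all genes) called Mrpl37 (adjusted p = 0.0315) and Mrpl38 (adjusted p = 0.0322) in the large subunit, 2 of 46, and 0 of 27 in the small one, where 779 of all genes (6.02%) were called. At an unadjusted p under 0.05 it gave 13 large and 7 small subunit genes, against 19.5% of all genes. Next in order were Mrps25 (adjusted p = 0.0616), Mrpl28 (0.0626), Mrps28 (0.0705), Mrpl21 (0.0822), Mrps10 (0.0945), Mrpl49 (0.132), Mrpl47 (0.139), Mrps7 (0.140) and Mrps24 (0.141). The 2 calls fell to 0 without Ex-4 replicate 1 or 3 at 20 h or PBS replicate 2 at 1 h.

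At 20 h after Ex-4, 3 of 46 large subunit genes rose against PBS, Mrpl37, Mrpl28 and Mrpl38, and 0 fell; 0 of 27 small subunit genes passed (limma, p adjusted over all genes by Benjamini-Hochberg, threshold 0.05), where 2.35% of all genes passed in either direction. In the large subunit 40 of 46 log2 differences were above 0 (median 0.18), and in the small subunit 25 of 27, with a median of 0.15. Over all genes 53.9% lay above 0 and the median was 0.01. An unadjusted p under 0.05 was reached by 16 large and 10 small subunit genes, all of them higher, against 12.4% of all genes in either direction. The Ex-4 arrays lay above the PBS arrays without overlap for 15 large and 8 small subunit genes, and below them for 0, where 7.94% of all genes were higher without overlap.

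Mrpl37 encodes a large subunit protein with no bacterial counterpart. Its log2 signal 20 h after Ex-4 was 11.21, 10.84 and 11.03, after PBS 10.77, 10.39 and 10.47, and after Fgf7 10.66, 10.87 and 10.68. The Ex-4 and PBS arrays did not overlap, while 1 Fgf7 array lay above the lowest Ex-4 array. The log2 difference from PBS was 0.48 ± 0.11 (SE, n = 3 per group), a 1.40-fold rise (adjusted p = 0.0145, limma). At 1 h and 5 h its 6 group means lay between 10.50 and 10.69. A second probe of the gene, of lower signal, gave a log2 difference of 0.33.

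Mrpl28, the counterpart of a bacterial large subunit protein, gave 11.25, 11.18 and 11.18 after Ex-4 at 20 h, 10.99, 10.86 and 10.87 after PBS, and 11.05, 11.12 and 11.06 after Fgf7. All 3 groups were apart, with the Fgf7 arrays between the others. The difference of Ex-4 from PBS was 0.29 ± 0.07 (SE), 1.23-fold (adjusted p = 0.0225, limma). The gene had a spread of 0.04 (SD, n = 3) among the Ex-4 arrays.

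Mrpl38, another large subunit protein with no bacterial counterpart, gave 10.93, 10.68 and 10.64 after Ex-4 at 20 h, 10.51, 10.05 and 10.32 after PBS, and 10.31, 10.55 and 10.29 after Fgf7. Each Ex-4 array lay above all 6 others. The difference from PBS was 0.46 ± 0.12 (SE), 1.37-fold (adjusted p = 0.0419, limma). Its second probe, near the dim level with a mean of 7.40, gave 0.15.

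**Figure D2:**
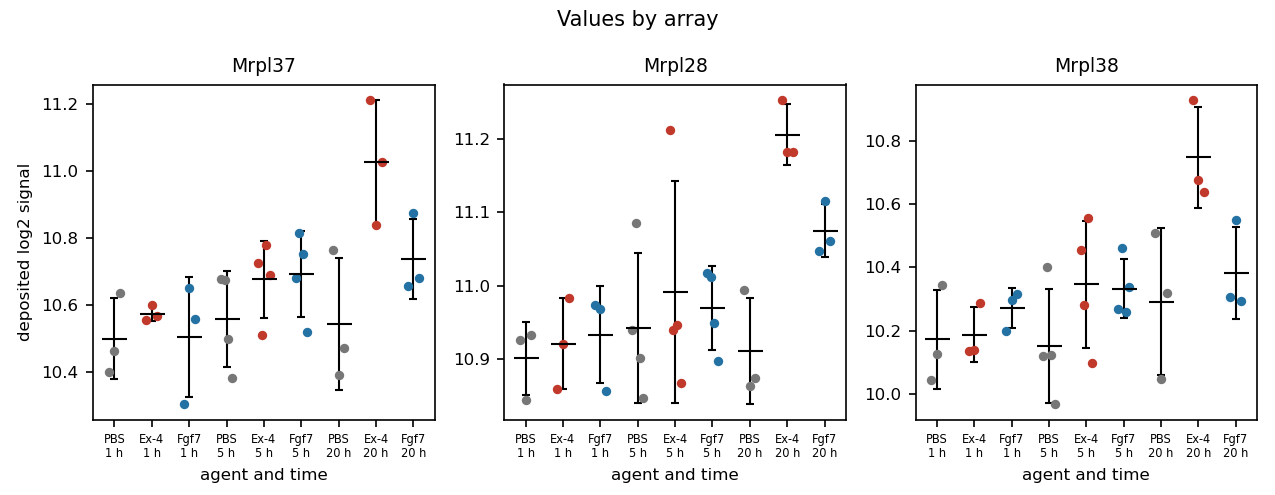
Deposited log2 signal of Mrpl37, Mrpl28 and Mrpl38 by agent and time; points are arrays and bars the group mean ± SD, and each panel has its own axis that does not start at 0. In each panel the 3 Ex-4 arrays at 20 h lie above the 3 PBS arrays of that time.

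These 3 calls rested on few arrays. None of the 3 genes passed without Ex-4 replicate 1, without PBS replicate 2 or without PBS replicate 3 of 20 h, nor when only the Ex-4 and PBS arrays of 20 h were fitted (adjusted p = 0.191, 0.161 and 0.245), while the log2 differences without 1 array stayed between 0.27 and 0.60. Dropping Ex-4 replicate 2 took Mrpl38 to an adjusted p of 0.0651, and averaging all probes took Mrpl37 to 0.0770. When the 4 arrays with much smooth muscle signal were dropped 2 of the 3 passed, Mrpl38 having an adjusted p of 0.0511; with that signal as a covariate all 3 passed.

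The genes next in order did not pass. Mrpl47, the counterpart of bacterial L29, read 10.32, 10.34 and 10.28 after Ex-4, 10.03, 10.02 and 9.73 after PBS and 9.83, 9.92 and 9.90 after Fgf7. Its difference from PBS was 0.39 ± 0.12 (adjusted p = 0.0754, limma), and no Ex-4 array overlapped either other group. Mrps28 had the largest difference of the small subunit, 0.40 ± 0.12 (adjusted p = 0.0826, limma), from arrays at 9.97, 9.84 and 10.18 after Ex-4 and at 9.71, 9.68 and 9.41 after PBS. Mrps16, the counterpart of bacterial S16, read 10.23, 10.31 and 10.16 after Ex-4 and 10.03, 9.93 and 9.69 after PBS, a difference of 0.35 ± 0.11 (adjusted p = 0.0863, limma). In both small subunit genes all 3 Ex-4 arrays lay above the 3 PBS arrays.

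Further down the order, Mrps7 (0.27 ± 0.09), Mrpl21 (0.35 ± 0.11), Mrpl16 (0.34 ± 0.11) and Mrps11 (0.31 ± 0.11) had adjusted p-values from 0.105 to 0.149. Mrpl12, which besides its place in the ribosome is known to bind the mitochondrial RNA polymerase, gave a log2 difference of 0.31 ± 0.10 (adjusted p = 0.133, limma) with arrays that did not overlap. At the low end, 6 large subunit genes lay below 0, Mrpl27 (-0.08 ± 0.09), Mrpl57 (-0.04), Mrpl39 (-0.03), Mrpl44 (-0.03), Mrpl23 (-0.03) and Mrpl14 (-0.02), as did Mrps9 (-0.05 ± 0.12) and Mrps33 (0.00) in the small subunit. None of these 8 had a difference larger than its standard error. The middle 50% of the large subunit genes lay between 0.10 and 0.25, and of the small subunit genes between 0.08 and 0.25, against -0.06 and 0.08 for all genes.

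**Figure D3:**
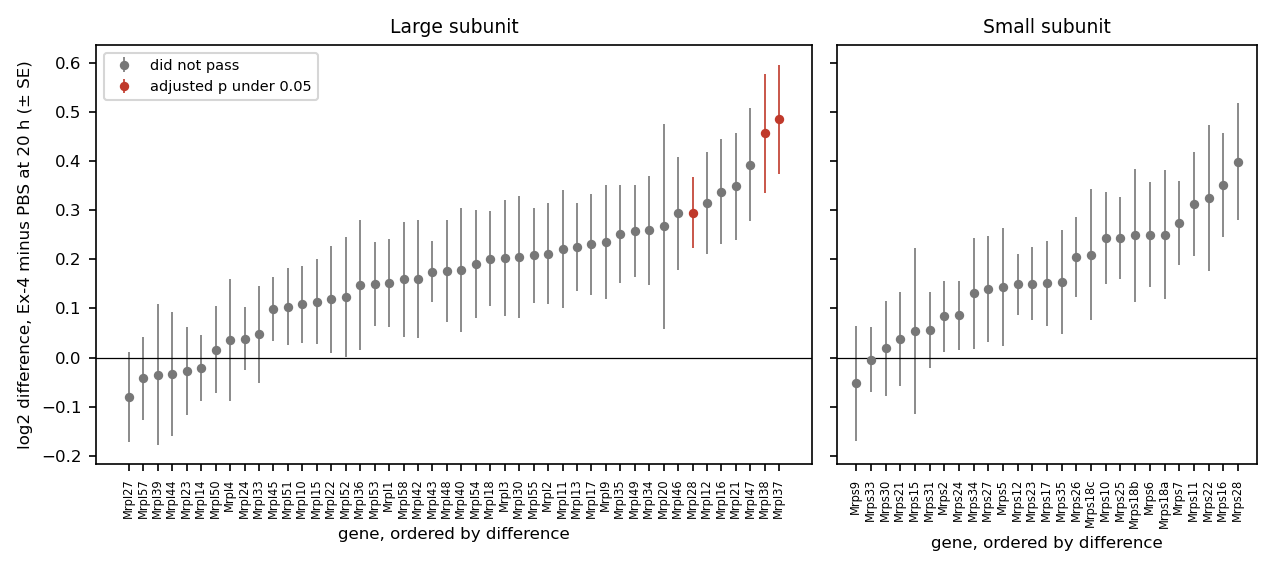
Log2 difference of Ex-4 from PBS at 20 h (± SE) for each large subunit gene (left) and small subunit gene (right), ordered by size; red marks an adjusted p under 0.05. Of the 46 large subunit genes 40 lie above 0 and 3 passed, and of the 27 small subunit genes 25 lie above 0 and 0 passed.

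Members with and without a bacterial counterpart, sorted into these classes after their values were seen, gave like values at 20 h. Among large subunit genes 24 of 27 with a counterpart lay above 0 (median 0.20) and 16 of 19 without one (median 0.16). In the small subunit the counts were 15 of 16 (median 0.18) and 10 of 11 (median 0.15). Mrps28, the highest of these 11 with 0.40, was put among them although its class is uncertain, and moving it was not tried. Of the genes tested, 28 had several probes past the filter, and for 21 of these every probe had the same sign at 20 h. The 43 additional probes had a median log2 difference of 0.12, and 35 of them were above 0. Mrps18a and Mrps30 carry small subunit names but are found in the large subunit in mammalian structures, and gave 0.25 ± 0.13 and 0.02 ± 0.10.

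Promoter windows from RefSeq (build GRCm38.p6), 250 bases before to 50 after each start, were matched by symbol for 65 of the 73 genes tested. They are shown for Mrpl37 and Mrpl28, called above; Mrpl38 was not matched. Capitals mark the letters searched for on both strands: CCGGAAGT (an ETS motif bound by GABPA), GCATGCGC (NRF1), AAGATGGC (YY1), CACGTG (an E-box bound by MYC) and CCAAT (bound by NF-Y).
Mrpl37, chr4:107066817-107067116, minus strand: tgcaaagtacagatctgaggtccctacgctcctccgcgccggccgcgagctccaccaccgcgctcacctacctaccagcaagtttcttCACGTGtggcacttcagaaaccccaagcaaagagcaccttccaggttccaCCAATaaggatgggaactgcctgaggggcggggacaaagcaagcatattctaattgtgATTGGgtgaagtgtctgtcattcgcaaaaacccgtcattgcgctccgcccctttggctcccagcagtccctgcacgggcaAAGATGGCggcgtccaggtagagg
Mrpl28, chr17:26123253-26123552, plus strand: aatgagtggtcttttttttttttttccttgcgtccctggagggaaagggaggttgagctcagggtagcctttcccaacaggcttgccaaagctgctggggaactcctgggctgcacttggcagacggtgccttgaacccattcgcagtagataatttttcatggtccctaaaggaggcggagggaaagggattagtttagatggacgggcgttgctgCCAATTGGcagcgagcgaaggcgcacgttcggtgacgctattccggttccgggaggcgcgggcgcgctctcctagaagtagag
The Mrpl37 window held 1 YY1 motif, 1 E-box and CCAAT on each strand, and the Mrpl28 window held CCAAT on both strands, the matches overlapping. Genes were counted, and a gene with several windows counted when any of them held the motif. The ETS motif was found for 8 of 41 large subunit genes (19.5%) and 4 of 24 small subunit genes (16.7%), against 4.31% of 27025 genes. These 27025 are all genes with a window, tested on the arrays or not, while the members are all genes tested. The NRF1 motif was in 14.6% and 4.17%, against 3.05%, and the YY1 motif in 12.2% and 25%, against 3.19%. The E-box was in 9.76% and 4.17%, against 8.09%, and CCAAT in 31.7% and 45.8%, against 41.1%. GABPA, NRF1 and YY1 are known regulators of nuclear genes for mitochondrial proteins. The motifs were chosen after the members' values were seen, a match is no measured site, and the windows do not depend on the treatment.

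Set against Fgf7 at 20 h, Ex-4 gave a median log2 difference of 0.13 in the large subunit, with 41 of 46 genes above 0, and 0.14 in the small subunit, with 25 of 27 above 0. Of all genes 51.8% lay above 0, with a median of 0.00. No member passed, where 1.79% of all genes did (limma). An unadjusted p under 0.05 was reached by 12 large and 4 small subunit genes, all higher after Ex-4, against 9.80% of all genes. The smallest adjusted p-values were those of Mrpl47 (0.43 ± 0.12, adjusted p = 0.0514), Mrps25 (0.30 ± 0.08, adjusted p = 0.0632), Mrpl21 (0.38 ± 0.11, adjusted p = 0.0753) and Mrps16 (0.33 ± 0.11, adjusted p = 0.134). Mrps25 read 8.47, 8.40 and 8.49 after Ex-4 and 8.04, 8.20 and 8.23 after Fgf7, with no overlap. Arrays were higher without overlap for 10 large and 6 small subunit genes, against 6.16% of all genes. Under 5 other settings 1 large subunit gene passed. In this comparison Lct, the brush border lactase, was lower after Ex-4 than after Fgf7 by 0.70 on the log2 scale (SE 0.13, adjusted p = 0.00156, limma). The goblet cell mucin Muc2 was lower by 0.46 (SE 0.08, adjusted p = 0.000626, limma) and the enteroendocrine hormone gene Cck by 0.61 (SE 0.12, adjusted p = 0.00328, limma). Of the marker lists, 5 of 5 Paneth cell markers (median 0.41), 12 of 12 fibroblast and matrix markers (median 0.16), 3 of 10 enterocyte markers (median -0.12) and 2 of 7 goblet cell markers (median -0.20) lay above 0. So did 5 of 5 macrophage markers (median 0.22), 1 of 5 T cell markers (median -0.31) and 2 of 8 enteroendocrine markers (median -0.06). For smooth muscle the count was 11 of 15 (median 0.09), and for crypt stem and dividing cells 4 of 8 (median -0.01). For B and plasma cells it was 1 of 3 (median -0.04). Against PBS at 20 h, 0 of 5 Paneth cell markers lay above 0 after Fgf7 (median -0.37) and 2 of 5 after Ex-4 (median -0.16). Goblet cell markers above 0 were 7 of 7 after Fgf7 (median 0.26) and 3 of 7 after Ex-4 (median -0.05). For fibroblast and matrix markers the counts were 0 of 12 (median -0.15) and 2 of 12 (median -0.04). The part of these markers in the members' values was not tested.

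At 5 h after Ex-4, 0 of 73 members passed against PBS, where 0.912% of all genes did (limma). Above 0 lay 35 of 46 large subunit genes (median 0.06) and 21 of 27 small subunit genes (median 0.08), against 50.9% of all genes and a median of 0.00. An unadjusted p under 0.05 was reached by 5 large subunit genes, 1 of them lower, and 4 small subunit genes, against 11.4% of all genes. The first 2 of each subunit by p were Mrpl54 (-0.26 ± 0.09) and Mrpl21 (0.25 ± 0.09), and Mrps30 (0.21 ± 0.08) and Mrps7 (0.18 ± 0.07), with adjusted p-values from 0.234 to 0.317. On the same arrays 5 of 5 Paneth cell markers (median 0.43) and 5 of 5 macrophage markers (median 0.31) lay above 0, while 0 of 15 smooth muscle markers did (median -0.20). Above 0 were also 5 of 8 markers of crypt stem and dividing cells (median 0.29) and 3 of 10 enterocyte markers (median -0.07). The counts were 3 of 3 for B and plasma cells (median 0.18) and 1 of 5 for T cells (median -0.13). For fibroblast and matrix markers 8 of 12 did (median 0.03), for goblet cells 3 of 7 (median -0.07) and for enteroendocrine cells 3 of 8 (median -0.01). None of these markers passed, and their part in the members' values was not tested. When the 4 arrays with much smooth muscle signal were dropped, 1 of them from Ex-4 and 1 from PBS at this time, the medians were 0.03 and 0.07 and 0 members passed. The change of the Ex-4 difference from 5 to 20 h had medians of 0.12 and 0.10, with 38 of 46 and 22 of 27 genes above 0, against 52.2% of all genes. In that comparison 0 members passed, where 0.966% of all genes did, and 6 members had an unadjusted p under 0.05, against 10.5% of all genes. Within each subunit the first 2 by p were Mrpl54 (0.45 ± 0.14, adjusted p = 0.160) and Mrpl55 (0.37 ± 0.13), and Mrps16 (0.37 ± 0.14) and Mrps11 (0.32 ± 0.14). Mrpl37 and Mrpl28 gave 0.37 ± 0.15 and 0.25 ± 0.09.

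At 1 h after Ex-4 the medians were 0.01 and -0.02, with 24 of 46 and 12 of 27 genes above 0, against 50.8% of all genes. Here 0 members passed, as did 0% of all genes, and 0 members had an unadjusted p under 0.05, against 2.9% of all genes. Within each subunit the smallest p-values were those of Mrpl57 (-0.16 ± 0.08) and Mrpl58, a peptidyl-tRNA hydrolase built into the ribosome (0.18 ± 0.12), and of Mrps27 (0.21 ± 0.11) and Mrps33 (-0.07 ± 0.07). Leaving out 1 array put the large subunit median anywhere from -0.01 to 0.03. The medians without the PBS array with much smooth muscle signal were 0.03 and -0.01. From 1 to 5 h the Ex-4 difference changed by medians of 0.06 and 0.09, and 0 members passed, where 0.131% of all genes did; 2 members had an unadjusted p under 0.05, against 7.12% of all genes. Within each subunit Mrpl54 (-0.33 ± 0.14) and Mrpl12 (0.26 ± 0.14), and Mrps28 (0.36 ± 0.16) and Mrps6 (0.24 ± 0.14), were first in that order.

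After Fgf7 no member passed against PBS at any time (limma). At 1 h the genes lay below 0 in most cases, with 14 of 46 large and 8 of 27 small subunit genes above it and medians of -0.07 and -0.05, where 0.00773% of all genes passed. Of all genes 50.5% lay above 0 (median 0.00). An unadjusted p under 0.05 was reached by 6 large subunit genes, 5 of them lower, and 1 small one, lower, against 7.65% of all genes. First by p in the large subunit were Mrpl51 (0.22 ± 0.08) and Mrpl22 (-0.26 ± 0.11), and in the small subunit Mrps21 (-0.24 ± 0.10) and Mrps28 (-0.23 ± 0.12). On the same arrays all 15 smooth muscle markers lay below 0 with a median of -0.85, and all 12 fibroblast and matrix markers with a median of -0.35. Without the PBS array with much smooth muscle signal the members' medians were -0.07 in both subunits, and with that signal as a covariate -0.05 in both. The array means at 1 h were -0.10, 0.01 and -0.15 for the large subunit after Fgf7 and -0.07, 0.00 and 0.00 after PBS, so these groups overlapped.

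At 5 h after Fgf7 the medians were 0.04 and 0.10, with 31 of 46 and 20 of 27 genes above 0, and 0.216% of all genes passed. Of all genes 51.0% lay above 0 (median 0.00). An unadjusted p under 0.05 was reached by 4 large and 6 small subunit genes, all higher, against 6.89% of all genes. First by p in the large subunit were Mrpl10 (0.19 ± 0.07) and Mrpl21 (0.21 ± 0.09), and in the small subunit Mrps12, of the decoding centre (0.15 ± 0.05), and Mrps7 (0.18 ± 0.07). When the arrays with much smooth muscle signal were dropped the medians were 0.01 and 0.06. At 20 h they were 0.03 and 0.04, with 32 of 46 and 19 of 27 above 0, against 54.4% of all genes (median 0.01). Here 0.0464% of all genes passed, and 2 members, both of the large subunit, had an unadjusted p under 0.05, against 4% of all genes. These were Mrpl28 (0.16 ± 0.07) and Mrpl51 (0.17 ± 0.08), and Mrps7 (0.16 ± 0.09) and Mrps18a (0.16 ± 0.13) were first by p in the small subunit. Without 1 array Mrps7 gave 0.06 to 0.25 and Mrps18a 0.02 to 0.25, the lowest being those without Fgf7 replicate 2 and without PBS replicate 3. Without PBS replicate 3 both subunit medians at 20 h were -0.02. The change of the Fgf7 difference from 1 to 5 h had medians of 0.11 and 0.10, with 36 of 46 and 22 of 27 genes above 0, against 51.3% of all genes. In that comparison 0 members and 0% of all genes passed, with 8 members at an unadjusted p under 0.05, against 7.31% of all genes, among them Mrps21 (0.36 ± 0.13), Mrps28 (0.40 ± 0.16), Mrpl14 (0.22 ± 0.09) and Mrpl11 (0.37 ± 0.16). From 5 to 20 h the medians were 0.00 and -0.05; 0% of all genes passed and 0 members had an unadjusted p under 0.05, against 3.7% of all genes, with Mrpl54 (0.24 ± 0.14), Mrpl21 (-0.24 ± 0.14), Mrps24 (-0.18 ± 0.09) and Mrps30 (-0.23 ± 0.13) first by p.

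**Figure D4:**
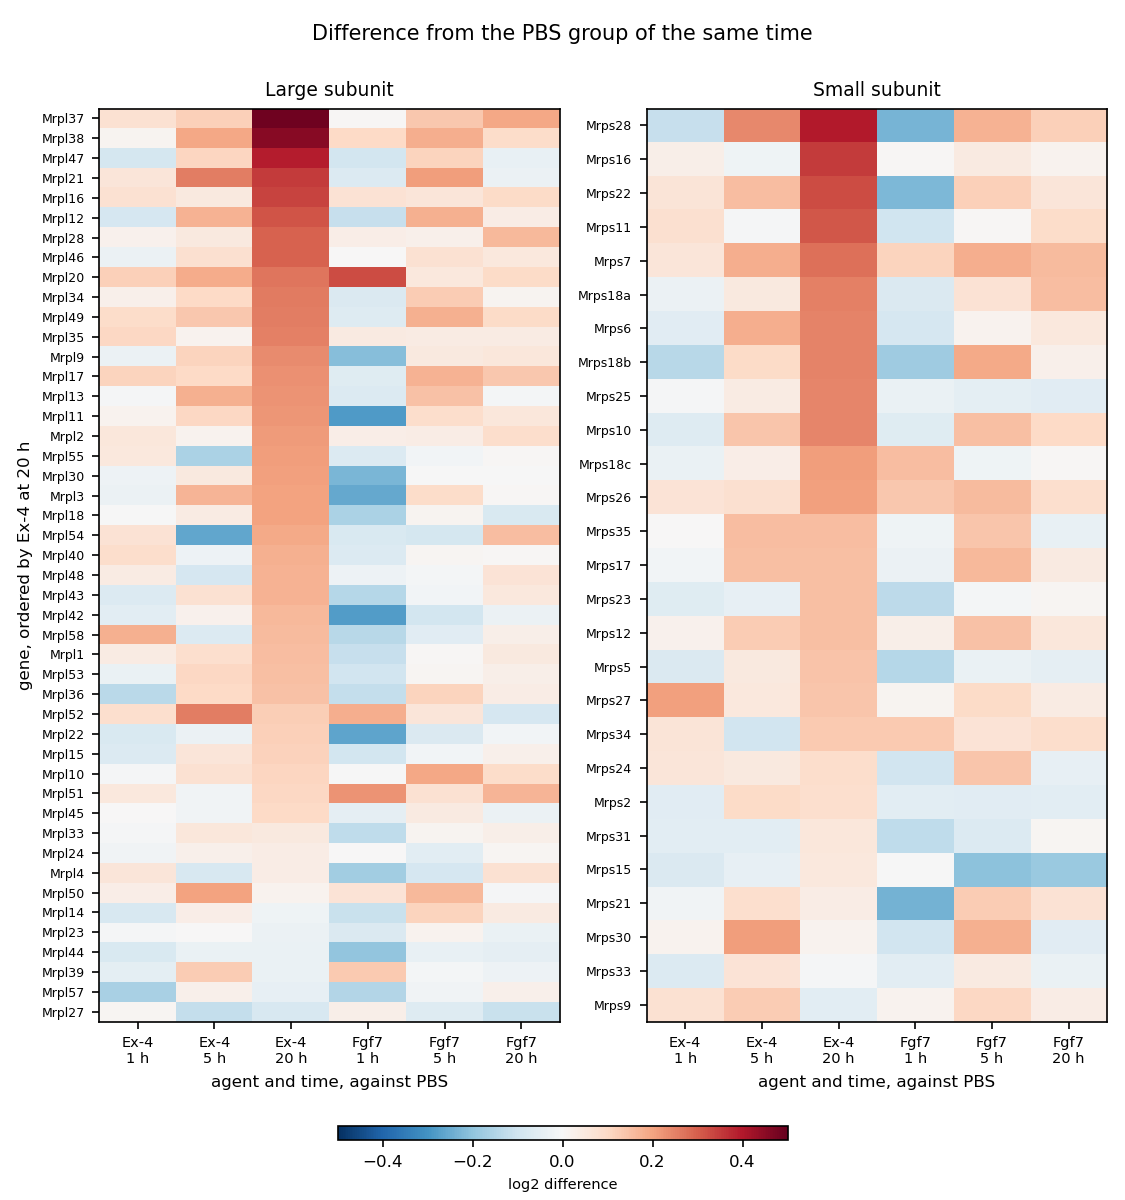
Log2 difference from the PBS group of the same time for each gene tested (rows, ordered by the Ex-4 difference at 20 h) after Ex-4 and Fgf7 at 1, 5 and 20 h (columns). The column of Ex-4 at 20 h is above 0 for 40 of 46 large and 25 of 27 small subunit genes, and that of Fgf7 at 1 h is above 0 for 14 and 8; the comparisons of a time share their PBS arrays.

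Between the agents at the earlier times, 0 members passed. At 1 h Ex-4 against Fgf7 gave medians of 0.06 (0.02 to 0.12 without 1 array) and 0.03 (0.01 to 0.08), with 0.00773% of all genes called, and 5 members had an unadjusted p under 0.05, against 5.73% of all genes; Mrpl58 (0.32 ± 0.12), Mrpl11 (0.30 ± 0.12), Mrps21 (0.22 ± 0.10) and Mrps24 (0.15 ± 0.07) led. At 5 h the medians were 0.00 in both subunits, 0.572% of all genes passed, and 1 member, Mrps2 (0.15 ± 0.06), had an unadjusted p under 0.05, against 9.76% of all genes; Mrpl52 (0.20 ± 0.11), Mrpl54 (-0.17 ± 0.09) and Mrps6 (0.16 ± 0.09) followed.

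In the PBS groups alone no member passed. An F-test over the 3 times called 0 members and 0% of all genes, and at an unadjusted p under 0.05 gave 0 members, against 4.58% of all genes; Mrpl49, Mrpl57, Mrps30 and Mrps21 had the smallest p-values, from 0.0917 to 0.138 unadjusted (limma). Medians lay between -0.03 and 0.02 for the 3 pairs of times, each with 0% of all genes called. An unadjusted p under 0.05 was reached by Mrpl57 (-0.18 ± 0.08) and Mrpl49 (-0.19 ± 0.09) from 1 to 5 h, where 5.41% of all genes reached it, by 0 members from 1 to 20 h (4.24%) and by Mrps30 (0.19 ± 0.09) from 5 to 20 h (4.3%). From 1 to 20 h Mrpl14 (-0.11 ± 0.07), Mrpl43 (-0.09 ± 0.06), Mrps21 (-0.16 ± 0.10) and Mrps24 (0.10 ± 0.07) had the smallest p-values. Also named by rank were Mrps28 (-0.20 ± 0.11) from 1 to 5 h and Mrpl39 (0.24 ± 0.13), Mrpl52 (0.18 ± 0.11) and Mrps33 (0.10 ± 0.06) from 5 to 20 h.

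Among themselves the members varied to different degrees over the 30 arrays. Mrpl20 had the largest SD of the large subunit (0.27, from 10.16 to 11.28), followed by Mrpl38 (0.21), and Mrps15 (0.22, from 9.54 to 10.53) and Mrps22 (0.20) had the largest of the small one. Mrpl20 varied within groups, as at 5 h after PBS, where its arrays read 10.35, 10.16, 10.63 and 11.04. The smallest SDs were those of Mrpl24 (0.07), Mrpl45 (0.08, near the dim level), Mrps33 (0.08) and Mrps12 (0.08).

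Genes that work with the mitochondrial ribosome included 2 that rose 20 h after Ex-4. Of all genes 2.35% passed in that comparison in either direction, and 53.9% lay above 0. Tufm, the mitochondrial elongation factor Tu, rose 1.42-fold (log2 difference 0.51 ± 0.11, adjusted p = 0.00975, limma), the 1 of 11 mitochondrial translation factors that passed; 9 of the 11 lay above 0, with a median of 0.10. Mpv17l2, an inner membrane protein linked to assembly of the ribosome, rose 1.33-fold (0.41 ± 0.11, adjusted p = 0.0335, limma), 1 of 18 assembly and ribosomal RNA maturation factors, of which 14 lay above 0 (median 0.13). All 14 mitochondrial aminoacyl-tRNA synthetases tested lay above 0 (median 0.13) and 0 passed. Of 4 further subunits without the family's name, Ptcd3 (0.25 ± 0.08), Chchd1 (0.21 ± 0.08), Dap3 (0.00 ± 0.08) and Gadd45gip1 (-0.03 ± 0.07), 3 lay above 0 and 0 passed. Of 19 genes of mitochondrial transcription and its regulators, Tfam, Nrf1 and Ppargc1a among them, 9 lay above 0 (median 0.00) and 0 passed.

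Other ribosomal and mitochondrial genes are given beside these as lists. The 59 cytosolic ribosomal protein genes had 55 above 0 both 5 h (median 0.15) and 20 h (median 0.12) after Ex-4, with 0 passing. The 19 nucleolar genes of ribosome biogenesis all lay above 0 at 5 h after either agent, with a median of 0.26 in each. Ncl, nucleolin, rose 1.51-fold after Fgf7 (0.59 ± 0.10, adjusted p = 0.00383, limma), where 0.216% of all genes passed in either direction. After Ex-4 0 of the 19 passed. At 20 h after Ex-4 the median of these nucleolar genes was 0.09. The 74 nuclear genes of the respiratory chain and ATP synthase had a median of -0.01 at 5 h and 0.08 at 20 h after Ex-4, with 57 of 74 above 0 at 20 h and 0 passing. Against Fgf7 at 20 h, 2 of the 74 were higher after Ex-4, the complex I genes Ndufs7 (0.26 ± 0.06, adjusted p = 0.0241, limma) and Ndufv2 (0.26 ± 0.07, adjusted p = 0.0381). Of all genes 1.79% passed in that comparison in either direction. The difference between lists was not tested.

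**Figure D5:**
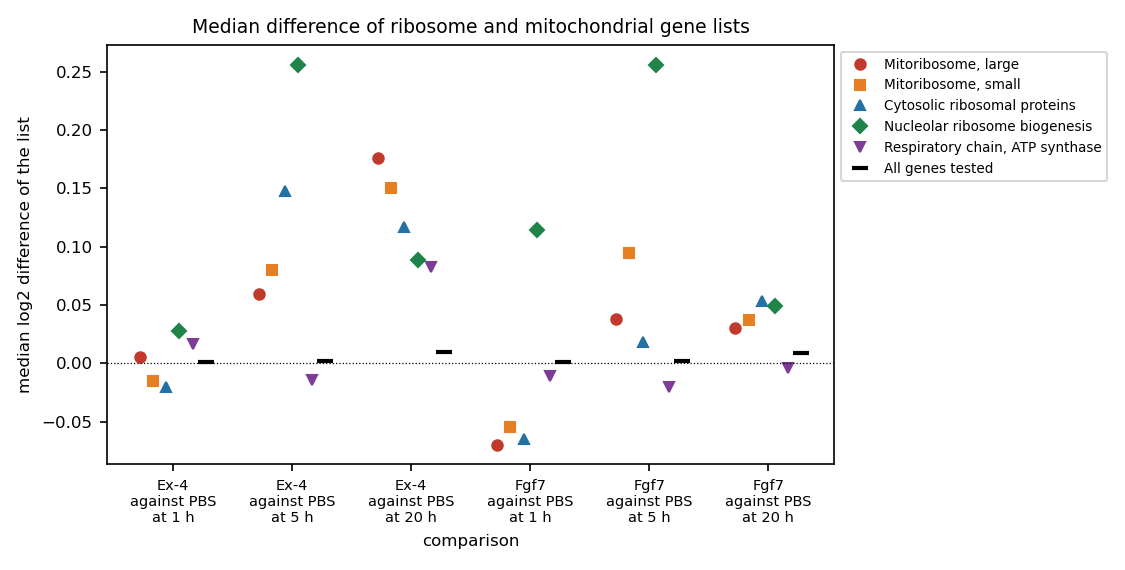
Median log2 difference from the PBS group of the same time for the large and small subunit genes, 3 other gene lists and all genes tested, after Ex-4 and Fgf7 at 1, 5 and 20 h. The nucleolar genes are highest at 5 h (0.26 after either agent) and the large subunit genes of the mitochondrial ribosome at 20 h after Ex-4 (0.18).

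Markers of cell types moved beside these genes 20 h after Ex-4, where 2.35% of all genes passed in either direction. Of the 10 enterocyte markers 3 lay above 0 (median -0.14), and Lct, lactase, fell by 0.63 on the log2 scale (SE 0.13, adjusted p = 0.00405, limma). Their mean centred signal ran from -0.26 to -0.08 on the Ex-4 arrays and from -0.07 to 0.09 on the PBS arrays. Of the 5 T cell markers 1 lay above 0 (median -0.30), with array means from -0.24 to -0.09 after Ex-4 and from -0.14 to 0.20 after PBS. The 1 above 0 had a log2 difference of 0.28 (adjusted p = 0.132, limma). It alone of the 5 had an unadjusted p under 0.05, and 0 passed. Of the 7 goblet cell markers 3 lay above 0 and Clca1 rose 1.53-fold (adjusted p = 0.0292, limma). Of the 8 markers of crypt stem and dividing cells 4 lay above 0 (median 0.00). The array means of these crypt markers were -0.03, -0.16 and 0.33 after Ex-4 and 0.07, 0.12 and -0.09 after PBS. Of the 15 smooth muscle markers 7 lay above 0 (median -0.02). The part of these cell types in the members' difference was not tested.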

How the data were processed

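RNA from scraped jejunal mucosa was amplified, biotin labelled and hybridised to Illumina bead arrays, per the labels' protocols. The deposited values were log2 signals, 1 per probe and array; the authors' background correction and normalization were not given in the sources used here. The values at each rank were nearly the same on all arrays (largest SD 0.0022). Of a second deposited table, 60 columns could not be matched to a sample and were not used. Of 45281 probes, 34885 had 1 gene symbol in the platform annotation, 18 several and 10378 none; 34807 were matched to RefSeq by gene ID.

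Here, probes above a dim level of 7.19 on at least 3 arrays were kept (the level that 1% of background would exceed), and 1 probe per gene, that of highest mean, was tested. The level was estimated in 2 ways with results already in view: first from the mode of a density estimate (7.0207, giving 12890 genes), then from the most frequent value rounded to 2 decimals (7.02, giving 12935 genes), which is used; the members called were the same 3. limma 3.58.1 (R 4.3.3) was fitted to the means of all 9 groups (21 residual and 4.64 prior degrees of freedom), with p-values adjusted by Benjamini-Hochberg over all genes tested in each of 16 contrasts and 2 F-tests. Correlations between arrays of a group were 0.988 to 0.996, and the number of arrays limits the precision. The fit was tested on simulated data with changes larger than any difference seen in a member. That test does not cover differences of the members' size.

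Named genes were, per comparison and subunit, those passing or else the 2 of smallest p, the 6 of smallest p in the F-test, and the 2 of largest and smallest SD. Genes and lists were chosen with earlier results of these data known; the classes by bacterial counterpart, the motifs and the counts of highest and lowest group means were added after the members' values were seen. Replicate numbers of the labels were checked as pairs: same-numbered arrays deviated together in every pair (correlation of deviations over 0.1) only for Fgf7 against PBS at 1 h (0.14 to 0.26) and 20 h (0.22 to 0.61), where the block left the members' counts at 0. The form of the block, within each time or, for PBS over time and the F-test, over all times, was chosen after these correlations were seen and before any blocked calls were. In all, 13 other settings were run, and each of the 30 arrays was left out in turn.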

Additional observations from a re-analysis of the deposited data

Results flagged for a closer look

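In the 3 groups of 4 arrays, 37 values per group were screened, so not all 73 genes tested were covered. These 111 values were screened for an array far from the other 3 (Dixon's ratio of the gap to the range), and 2 exceeded the limit, where chance flags about 1 in 20. Mrpl51 read 7.52 on Fgf7 replicate 2 at 5 h against 7.69 to 7.70 on the others (ratio 0.9325); that array is among the 4 with much smooth muscle signal. Mrps18a read 9.59 on Fgf7 replicate 4 at 5 h against 9.99 to 10.03 on the others (ratio 0.9104). Neither gene passed in any comparison.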

How the results depend on the processing

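For Ex-4 against PBS at 20 h, the medians stayed between 0.12 and 0.22 (large subunit) and between 0.14 and 0.19 (small) without 1 array, and between 0.16 and 0.20 and between 0.13 and 0.18 under 12 other settings. The count of large subunit genes passing was 3, and it was 1 with background subtraction, 0 with only the groups compared, 5 with the replicate block and 0 to 3 without 1 array; the small subunit count of 0 became 2 with the mean of a gene's probes and 2 with the block. For Ex-4 against Fgf7 at 20 h, the large subunit count of 0 became 1 with median centring, cyclic loess, the mean of probes, a filter on the mean or only the groups compared, and 3 with the block, and the small subunit count became 2 with the block. For the change of the Ex-4 difference from 5 to 20 h the block gave 1 small subunit gene. The F-test's large subunit count of 2 became 1 with background subtraction, 1 with the mean of probes, 8 with the block and 0 to 3 without 1 array, and its small subunit count of 0 became 2 with the mean of probes, 3 with the block and 0 to 2 without 1 array. The median change of the Fgf7 difference from 1 to 5 h in the small subunit, 0.10, ran from 0.065 to 0.168 without 1 array, the highest value being that without Fgf7 replicate 2 at 1 h. The block changed no other count of members. The shares of all genes passing given above are those of the main fit. Shares under these other settings are not given here, so the changed counts cannot be read as particular to the members. The labels do not say whether same-numbered samples share more than a number. Their correlations of deviations at 20 h ran from -0.0002 to 0.37 for Ex-4 against PBS. For Ex-4 against Fgf7 they ran from -0.18 to 0.20. The cause of these shifts was not tested. A fit to fewer arrays has fewer degrees of freedom, and the part of this in the counts was not tested either. The medians of Ex-4 against PBS at 20 h stayed above 0 under every setting run. Each gene chosen by the naming rule kept its sign under these settings in the comparison it was chosen in. The dim level from a density estimate, chosen after seeing the data, left every count of members the same. Genes near background, Mrpl45, Mrpl19, Mrpl32 and Mrps14, could not be measured well.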
